A study of Mus musculus with 24 samples.

Results

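Tumours of the mouse cortex that carry the label HGG were set against those labelled ependymoma. The members are the 4 HGG and 11 ependymoma tumours, 15 of the 24 in the series, and were chosen by that label alone. The 5 tumours labelled TUMOR and the 4 labelled UNKNOWN carry no tumour type and were left out. Every tumour grew from cells that expressed a class gene. HGG 1 and HGG 3 have the class gene ZNF668, and HGG 2 and HGG 4 have BC74C. Of the ependymomas, 6 have BC74C (ependymoma 1 to 6), 3 have ZNF668 (7 to 9) and 2 have RAB3A (10 and 11), a class gene with 0 HGG tumours. Replicate numbers follow the order of deposit. The mouse strain, age and sex, the vector or promoter behind the class genes and the cells that received them are not given in the sources used here. BC74C is not an approved gene symbol, and the labels do not spell out HGG. Whether each tumour is from a different animal is not stated either, and p-values therefore measure only the spread between these samples.

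In this field HGG usually stands for high-grade glioma, a fast-dividing tumour whose cells carry markers of astrocytes and oligodendrocyte progenitors and whose growth is often driven by receptor tyrosine kinases such as Egfr, Pdgfra and Met. Ependymomas resemble the ciliated ependymal cells that line the ventricles, or the radial glia from which those cells arise. Foxj1 is the main regulator of motile cilia, and Gfap, Olig2 and Prom1 are widely used markers of astrocytes, of the oligodendrocyte lineage and of neural stem cells.

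Each tumour was measured on a single-colour array, and levels are deposited log2 values. Array medians lay between 4.98 and 5.20. The precision is limited by the number of arrays: over the 13218 genes tested, the standard error of a log2 difference had a median of 0.25, and the median SD between tumours was 0.39 within HGG and 0.40 within ependymoma. After centring each gene, pairs of HGG tumours correlated across genes with a median r of -0.12 (6 pairs), HGG with ependymoma tumours with -0.09 (44 pairs) and pairs of ependymomas with -0.13 (55 pairs). These correlations are across genes, which are not independent. HGG 1 and HGG 3 were nearest to each other (r = 0.56), HGG 4 was nearest to ependymoma 6 (r = 0.34), and HGG 2 was nearest to ependymoma 8 (r = 0.69).

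HGG 2 stood apart from the other tumours of its label. Its mean over 20 genes of mature neurons was 9.67, while HGG 1, HGG 3 and HGG 4 had 6.34, 6.97 and 6.82. The ependymomas lay between 6.38 and 9.51, with a median of 8.30, so HGG 2 was above all 11 and HGG 1 below all 11. The means of the Y-linked Eif2s3y, Kdm5d and Uty were 8.04, 4.34, 7.89 and 5.31 in HGG 1 to 4, against 6.36 to 8.18 in the ependymomas. HGG 2 and HGG 4, the HGG tumours with BC74C, were below every ependymoma. List medians are therefore also given without HGG 2, and as a range over leaving out each of the 15 tumours in turn. In HGG tumours a low Y-linked level and the class gene BC74C cannot be told apart. Titles begin with mmr in HGG 3, HGG 4 and the RAB3A ependymoma 11 and with elw in the other 12, so no comparison of the labels at a shared class gene exists within mmr.

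**Figure D1:**
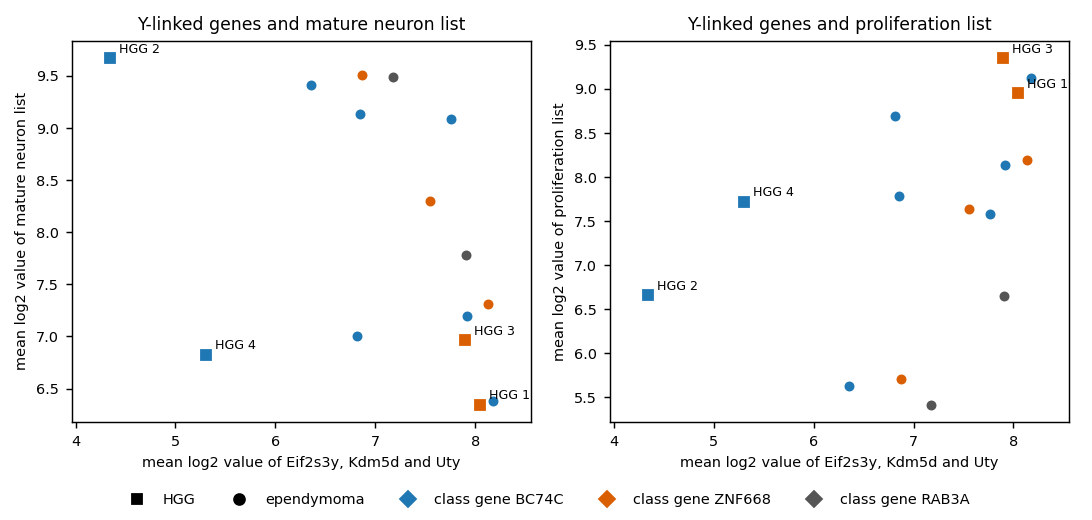
Each point is a tumour, with the mean log2 value of Eif2s3y, Kdm5d and Uty on the horizontal axis and the mean log2 value of the mature neuron list (left) or the proliferation list (right) on the vertical axis. Squares are HGG and circles ependymoma tumours, coloured by class gene. HGG 2 and HGG 4 lie at Y-linked means of 4.34 and 5.31, left of the lowest ependymoma at 6.36, and HGG 2 has the highest neuron mean, 9.67.

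No gene separated the labels past the test. With the class gene as a covariate, limma called 0 of 13218 genes at an adjusted p under 0.05 (0%), and the smallest adjusted p was 1.0 after rounding. At an unadjusted p under 0.05 there were 229 genes (1.73%), 87 with the higher level in HGG (0.658%) and 142 with the lower level in HGG (1.07%). By chance alone about 661 genes would be expected at that threshold, more than were found. Over all genes the HGG minus ependymoma difference had a median of 0.00085, and 50.2% of genes had a positive difference. The 95% interval of the difference lay within -1 to 1 for 9610 genes (72.7%) and within -2 to 2 for 12621 genes (95.5%), and for the rest larger differences were not excluded by their interval. Without HGG 2, limma again called 0 genes, 855 had an unadjusted p under 0.05 (6.47%), and the smallest adjusted p was 0.0705, for Car6.

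The genes with the smallest p in each direction, none of which passed, were led by Plagl1, an imprinted zinc finger transcription factor. Plagl1 stood at 9.37, 10.34, 9.24 and 10.04 in HGG 1 to 4, against 9.93 to 11.51 in the ependymomas, with a median of 10.90. All 4 HGG tumours were below the ependymoma median, and HGG 1 and HGG 3 were below every ependymoma. The difference was -1.10 (SE 0.29, limma unadjusted p = 0.00186, adjusted p = 1.0). Sparc, a secreted matrix-binding glycoprotein, had 12.41, 12.01, 11.95 and 11.55 in HGG 1 to 4, against 12.19 to 12.84 in the ependymomas, with a median of 12.56. Here HGG 2, HGG 3 and HGG 4 were below every ependymoma, and HGG 1 was inside their range. The Sparc difference was -0.54 (SE 0.14, limma unadjusted p = 0.00224).

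Gulp1, an adaptor of the engulfment of dying cells, had 4.67, 6.70, 6.16 and 5.07 in HGG 1 to 4, against 6.33 to 7.74 (median 7.11) in the ependymomas, a difference of -1.34 (SE 0.37). HGG 2 alone reached the ependymoma range. Gli2, a transcription factor of Hedgehog signalling, had 7.87, 7.36, 6.91 and 7.52 in HGG 1 to 4, against 7.76 to 8.83 (median 8.07) in the ependymomas, a difference of -0.73 (SE 0.21). HGG 1 alone reached the range. Pls3, an actin-bundling plastin, differed by -0.42 (SE 0.12).

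In the other direction, Fam89a had 7.73, 5.19, 6.51 and 6.03 in HGG 1 to 4, against 4.05 to 6.52 (median 5.05) in the ependymomas, a difference of 1.27 (SE 0.40). All 4 HGG tumours were above the ependymoma median and HGG 1 above every ependymoma. Car6, a secreted carbonic anhydrase, had 5.36, 3.21, 5.50 and 5.55 in HGG 1 to 4, against 3.39 to 4.70 (median 3.57) in the ependymomas. HGG 2 was below every ependymoma and the other 3 were above all of them. The ependymoma median and HGG 2 were under the filter value of 3.76, so Car6 was dim in most ependymomas. The Car6 difference was 1.07 (SE 0.34, limma unadjusted p = 0.00689), and 1.65 without HGG 2 (limma adjusted p = 0.0705). Myzap, a junction protein known from heart muscle, differed by 0.72 (SE 0.20). It had 3.83, 3.53, 4.88 and 4.04 in HGG 1 to 4, against 3.04 to 3.66 (median 3.32) in the ependymomas. Every ependymoma was thus under the filter value of 3.76, and Myzap passed the filter only through other arrays. Slmap, a membrane-anchored scaffold protein, differed by 0.60 (SE 0.17) and Rep15, an effector of the GTPase Rab15, by 0.69 (SE 0.21). None of these 10 genes took the opposite sign in any of the 31 alternative settings. The genes were picked by their p in these same tumours, and most settings refit largely the same arrays. The held sign is therefore not separate evidence.

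**Figure D2:**
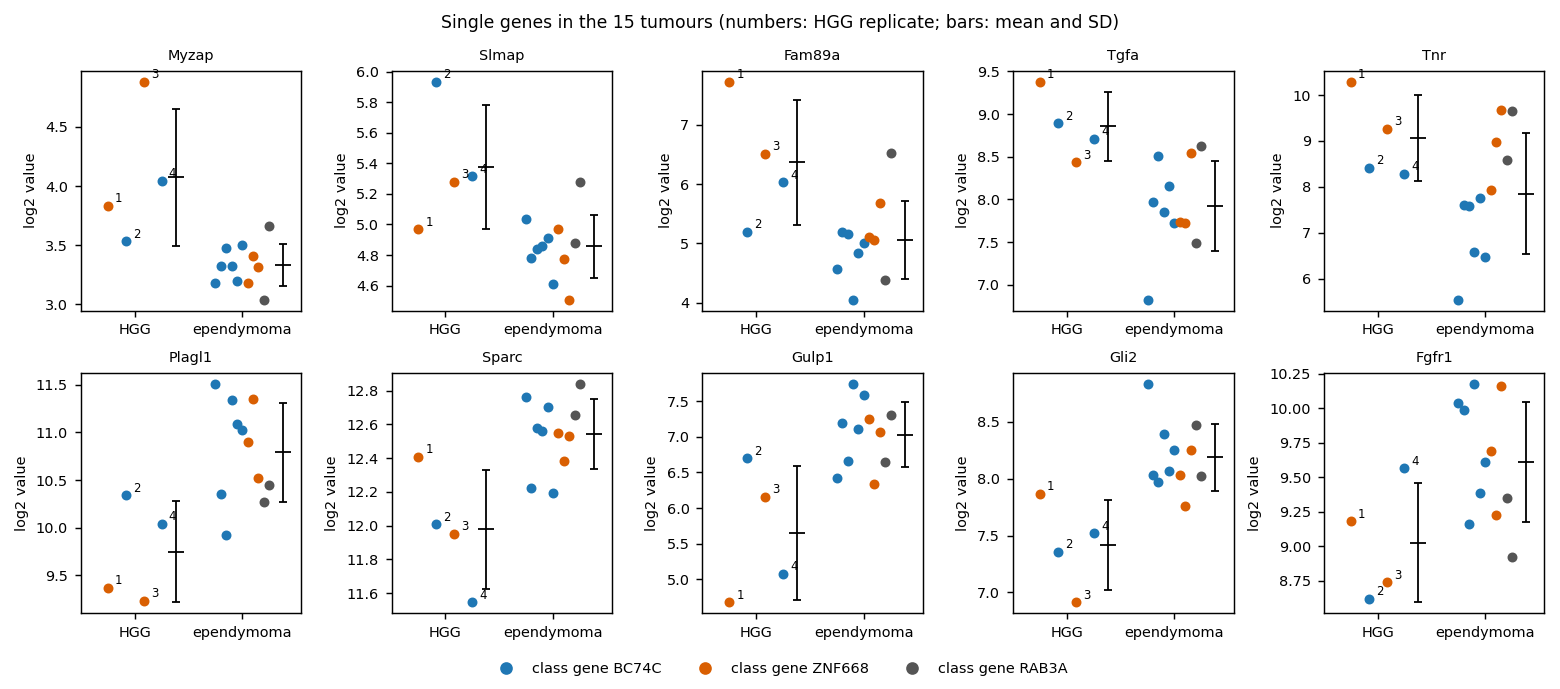
Log2 values of 10 genes in the 4 HGG (left of each panel, numbered by replicate) and 11 ependymoma tumours, coloured by class gene, with the mean and SD of each label as a bar. In every panel at least 1 HGG tumour lies within the ependymoma range. Plagl1, Sparc, Gulp1, Gli2 and Fgfr1 have the lower mean in HGG, and Myzap, Slmap, Fam89a, Tgfa and Tnr the higher.

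The values of the labels did not overlap for 6 of 13218 genes (0.0454%), which are named here after their values were seen. HGG had the higher values for 2 (0.0151%), the zinc finger gene Zc3h8 (difference 0.46) and Ndufc1, a subunit of respiratory complex I (0.25). HGG had the lower values for 4 (0.0303%): Cnnm3 at -0.50, Arhgap9 at -0.47, the cytokine Il17b at -0.59 and Bmpr1b, a bone morphogenetic protein receptor, at -0.66. Bmpr1b had 8.48, 8.47, 7.27 and 8.47 in HGG 1 to 4, against 8.56 to 9.73 (median 8.88) in the ependymomas, so that HGG 3 was far below the other 3 and these lay just below the lowest ependymoma. Other probe sets took the opposite sign for Arhgap9 (0.13 and 0.0040) and Ndufc1 (-0.0094).

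Glial, ependymal, stem and growth genes were grouped in lists, and limma called 0 members of any of the 22 lists at an adjusted p under 0.05. In bulk tumour RNA, fewer cells of a type and less RNA per cell cannot be told apart. Over leaving out each tumour in turn, the median kept its sign for 8 of the 22 lists and took the opposite sign at least once for the other 14.

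Of 20 astrocyte genes tested, 15 had a negative and 5 a positive difference, with a median of -0.25. In limma 1 of the 20 had an unadjusted p under 0.05, against 1.73% of all genes. The list mean was 10.38, 10.33, 9.56 and 10.32 in HGG 1 to 4, against 9.89 to 10.98 (median 10.58) in the ependymomas. All 4 HGG tumours were below the ependymoma median, and HGG 3 was below every ependymoma. Gfap, the intermediate filament of astrocytes, had 11.90, 10.37, 10.19 and 10.21 in HGG 1 to 4, against 9.83 to 12.32 (median 10.95) in the ependymomas, a difference of -0.23 (SE 0.46). Only HGG 1 was above the ependymoma median, and all 4 lay inside the range. Aqp4, the water channel of astrocyte endfeet, had 12.42, 11.18, 9.80 and 11.17 in HGG 1 to 4, against 11.15 to 12.55 (median 11.78) in the ependymomas, a difference of -0.51 (SE 0.37). HGG 3 was below every ependymoma. Slc4a4, a bicarbonate cotransporter, had 10.12, 9.97, 10.10 and 10.93 in HGG 1 to 4, against 9.85 to 11.67 (median 11.21) in the ependymomas. All 4 were below the ependymoma median and inside the range, and the difference was -0.72 (SE 0.30, limma unadjusted p = 0.033). The glutamate transporter Slc1a2 differed by -0.72 (SE 0.37), the claudin Cldn10 by -0.89 (SE 0.52) and the calcium-binding protein S100b by 0.31 (SE 0.40). The list median was -0.31 without HGG 2, with 3 of 20 positive, and ranged from -0.38 without HGG 1 to -0.04 without HGG 3, with 8 of 20 positive in the last.

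The oligodendrocyte progenitor list had 10 of 15 positive differences and a median of 0.34. An unadjusted p under 0.05 in limma was found for 2 of the 15, against 1.73% of all genes. The list mean was 9.46, 7.34, 9.15 and 8.49 in HGG 1 to 4, against 7.25 to 9.16 (median 8.20) in the ependymomas. HGG 1 was above every ependymoma and HGG 2 near the lowest. Tnr, the matrix glycoprotein tenascin R, had 10.29, 8.42, 9.26 and 8.28 in HGG 1 to 4, against 5.54 to 9.69 (median 7.77) in the ependymomas. All 4 HGG tumours were above the ependymoma median and 3 of them inside the range, and the difference was 1.20 (SE 0.44, limma unadjusted p = 0.0163). C1ql1, a secreted C1q-like protein, had 5.15, 3.76, 4.26 and 4.02 in HGG 1 to 4, against 3.49 to 4.23 (median 3.62) in the ependymomas. The difference was 0.49 (SE 0.17), with the ependymoma median under the filter value of 3.76. HGG 1 and HGG 3 were above every ependymoma.

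Pdgfra, the receptor through which platelet-derived growth factor drives these progenitors, had 5.93, 4.22, 6.35 and 4.55 in HGG 1 to 4, against 3.98 to 6.19 (median 4.66) in the ependymomas, a difference of 0.61 (SE 0.38). The ZNF668 tumours HGG 1 and HGG 3 were above the ependymoma median and the BC74C tumours HGG 2 and HGG 4 below it. Olig2, a transcription factor of the lineage, had 11.43, 8.39, 11.50 and 11.77 in HGG 1 to 4, against 9.63 to 12.10 (median 10.90) in the ependymomas. HGG 2 was below every ependymoma and the other 3 were above the median, and the difference was -0.11 (SE 0.52), or 0.71 without HGG 2. Sox10, a second regulator of the lineage, differed by 0.35 (SE 0.50), and its other probe sets by -0.29 and -0.0079. The list median was 0.71 without HGG 2, with 15 of 15 positive, but -0.18 after blocking on title prefix, with 6 of 15 positive. The lowest median on leaving out a tumour was 0.18, without HGG 4.

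Myelin and other genes of mature oligodendrocytes had 5 of 15 positive differences and a median of -0.16, with 0 at an unadjusted p under 0.05 in limma. Averaged over the list, levels were 8.37, 8.77, 7.91 and 7.37 in HGG 1 to 4, against 5.73 to 9.94 (median 8.50) in the ependymomas, so all 4 were inside the range. Mbp, myelin basic protein, had 11.84, 12.20, 11.23 and 10.82 in HGG 1 to 4, against 7.87 to 13.47 (median 12.28) in the ependymomas. The Mbp difference was -0.23 with a 95% interval of -2.08 to 1.63, and another probe set gave 0.30. The list median was -0.68 without HGG 2, but positive without HGG 1 (0.04), HGG 4 (0.15) or ependymoma 3 (0.09), each with 9 of 15 positive.

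Ependymal and motile cilia genes had 14 of 23 positive differences and a median of 0.04 (12 of 23 and 0.0025 after median centring). Of the 23, 1 had an unadjusted p under 0.05 in limma, against 1.73% of all genes. The median was -0.04 without HGG 2, with 11 of 23 positive, and reached 0.19 without ependymoma 8. Averaged over the list, levels were 5.12, 5.78, 4.85 and 5.70 in HGG 1 to 4, against 4.93 to 6.17 (median 5.33) in the ependymomas. The BC74C tumours HGG 2 and HGG 4 were above the ependymoma median and the ZNF668 tumours HGG 1 and HGG 3 below it, HGG 3 below every ependymoma. A further 10 measured members were too dim to test, among them the axonemal dyneins Dnah5 and Dnah12, the central apparatus gene Spag6 and the multiciliation gene Ccno, with means of 3.19, 3.19, 3.27 and 3.60 in HGG and 3.16, 3.10, 3.56 and 3.64 in ependymoma, where the filter was at 3.76.

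Foxj1 had 6.84, 5.68, 5.78 and 6.96 in HGG 1 to 4, against 5.47 to 8.11 (median 6.35) in the ependymomas, a difference of -0.16 (SE 0.45). HGG 1 and HGG 4 were above the median, HGG 2 and HGG 3 below it. Rfx2, another transcription factor of cilia genes, had 4.73, 4.22, 3.36 and 4.91 in HGG 1 to 4, against 4.06 to 5.60 (median 4.56) in the ependymomas, a difference of -0.40 (SE 0.29). Ak7, an adenylate kinase of the axoneme, had 3.82, 5.98, 4.0 and 5.29 in HGG 1 to 4, against 3.64 to 4.87 (median 3.86) in the ependymomas. HGG 2 and HGG 4 were above every ependymoma, and HGG 1 and HGG 3 were near the median. The Ak7 difference was 0.81 (SE 0.29, limma unadjusted p = 0.0155), or 0.50 without HGG 2. Rsph1, of the radial spokes, differed by 0.65 (SE 0.39), Tmem212 by 0.55 (SE 0.42) and Tppp3, a tubulin-binding protein, by -0.85 (SE 0.56).

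Radial glia and neural stem genes had 10 of 23 positive differences and a median of -0.01, with 0 at an unadjusted p under 0.05 in limma. Their mean was 8.32, 7.56, 7.85 and 7.70 in HGG 1 to 4, against 7.37 to 8.18 (median 7.90) in the ependymomas. HGG 1 was above every ependymoma and the other 3 were inside the range. The list median was 0.13 without HGG 2, the highest on leaving out a tumour, and -0.13 without ependymoma 8, the lowest. Prom1, the membrane protein CD133, had 8.30, 8.34, 8.14 and 8.18 in HGG 1 to 4, against 6.72 to 9.20 (median 8.10) in the ependymomas, a difference of 0.29 (SE 0.33). The HGG tumours were close together just above the ependymoma median. Sox2, a stem cell transcription factor, differed by 0.18 with a 95% interval of -0.21 to 0.57, and Fabp7, the fatty acid binding protein of radial glia, by -0.14 with an interval of -0.82 to 0.54. Nes, the intermediate filament nestin, had 5.43, 3.59, 5.68 and 5.05 in HGG 1 to 4, against 3.07 to 6.49 (median 4.41) in the ependymomas. Its difference was 0.07, with HGG 2 alone below the ependymoma median. The forebrain homeobox gene Emx2 differed by -0.78 (SE 0.39) and the Hedgehog pathway factor Gli3 by -0.65 (SE 0.36), and for both genes all 4 HGG tumours were below the ependymoma median.

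Growth factor receptors had 6 of 16 positive differences and a median of -0.15. An unadjusted p under 0.05 in limma was reached by 2 of the 16, against 1.73% of all genes. Without HGG 2 the sign of the median turned, to 0.05 with 9 of 16 positive. In that limma fit 1 receptor had an unadjusted p under 0.05, against 6.47% of all genes. Without HGG 4 the median was -0.29. Egfr, the receptor most often amplified in human high-grade glioma, had 9.71, 9.52, 10.97 and 11.08 in HGG 1 to 4, against 9.45 to 11.02 (median 10.40) in the ependymomas. HGG 1 and HGG 2, whose titles begin with elw, were below the ependymoma median, and HGG 3 and HGG 4, whose titles begin with mmr, above it. The Egfr difference was -0.01 with a 95% interval of -0.77 to 0.74, and blocking on title prefix gave -0.56. Of 5 other Egfr probe sets, 4 gave 0.01, 0.15, 0.56 and 0.24 and a dim one -0.08.

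Fgfr1, a fibroblast growth factor receptor, had 9.18, 8.62, 8.74 and 9.57 in HGG 1 to 4, against 8.92 to 10.17 (median 9.61) in the ependymomas. All 4 HGG tumours were below the ependymoma median, HGG 2 and HGG 3 below every ependymoma, and the difference was -0.68 (SE 0.24, limma unadjusted p = 0.0137). Flt1, a receptor of vascular endothelial growth factor, had 7.92, 8.13, 8.42 and 7.73 in HGG 1 to 4, against 6.91 to 7.89 (median 7.42) in the ependymomas. HGG 4 alone was inside the ependymoma range, and the difference was 0.52 (SE 0.22, limma unadjusted p = 0.032). Met, the receptor of hepatocyte growth factor, had 5.58, 5.55, 5.06 and 6.53 in HGG 1 to 4, against 4.74 to 8.47 (median 6.16) in the ependymomas, a difference of -0.44 (SE 0.56). Fgfr2 differed by -0.43 (SE 0.28), the insulin-like growth factor receptor Igf1r by -0.38 (SE 0.19, another probe set 0.14) and Kit by 0.38 (SE 0.30).

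Growth factor ligands had 6 of 16 positive differences and a median of -0.19. In limma 1 of the 16 had an unadjusted p under 0.05, against 1.73% of all genes. The median was -0.10 without HGG 2 and -0.26 without HGG 1, the ends of its range. The gene with that p was Tgfa, a ligand of Egfr, which had 9.38, 8.89, 8.43 and 8.71 in HGG 1 to 4, against 6.82 to 8.63 (median 7.85) in the ependymomas. HGG 3 alone was inside the ependymoma range, and the difference was 0.94 (SE 0.31, limma unadjusted p = 0.0094). The other Tgfa probe sets gave -0.04 and -0.06. Hbegf, also a ligand of Egfr, had 11.72, 9.40, 11.59 and 10.72 in HGG 1 to 4, against 9.94 to 12.01 (median 11.39) in the ependymomas, a difference of -0.57 (SE 0.40). HGG 2 was below every ependymoma. Pdgfd, a platelet-derived growth factor, differed by -1.16 (SE 0.62), the neurotrophin Bdnf by -0.59 (SE 0.42) and Vegfa by 0.10 (SE 0.48), with -0.23 for another Vegfa probe set.

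Feedback regulators of MAPK signalling and ETV factors had 8 of 13 positive differences and a median of 0.04 (6 of 13 and -0.0010 after median centring), with 0 at an unadjusted p under 0.05 in limma. The list mean was 9.38, 8.77 and 10.16 in HGG 1 to 3, with HGG 4 between HGG 3 and the highest ependymoma, against 8.67 to 9.96 (median 9.54) in the ependymomas. HGG 3 and HGG 4, with mmr titles, were above every ependymoma, and HGG 1 and HGG 2, with elw titles, were below the median. Blocking on title prefix gave a median of -0.14, with 2 of 13 positive, and elw titles alone -0.34, with 0 of 13. Leaving out a tumour gave from -0.25 without HGG 4 to 0.37 without HGG 2, and the median was also negative without HGG 3 or ependymoma 3, 4 or 8. Spry1, an inhibitor of receptor signalling, had 9.27, 7.32, 10.27 and 9.99 in HGG 1 to 4, against 7.93 to 10.31 (median 9.78) in the ependymomas, a difference of -0.46 (SE 0.50). Dusp4, a phosphatase of MAP kinases, differed by 0.51 (SE 0.47).

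**Figure D3:**
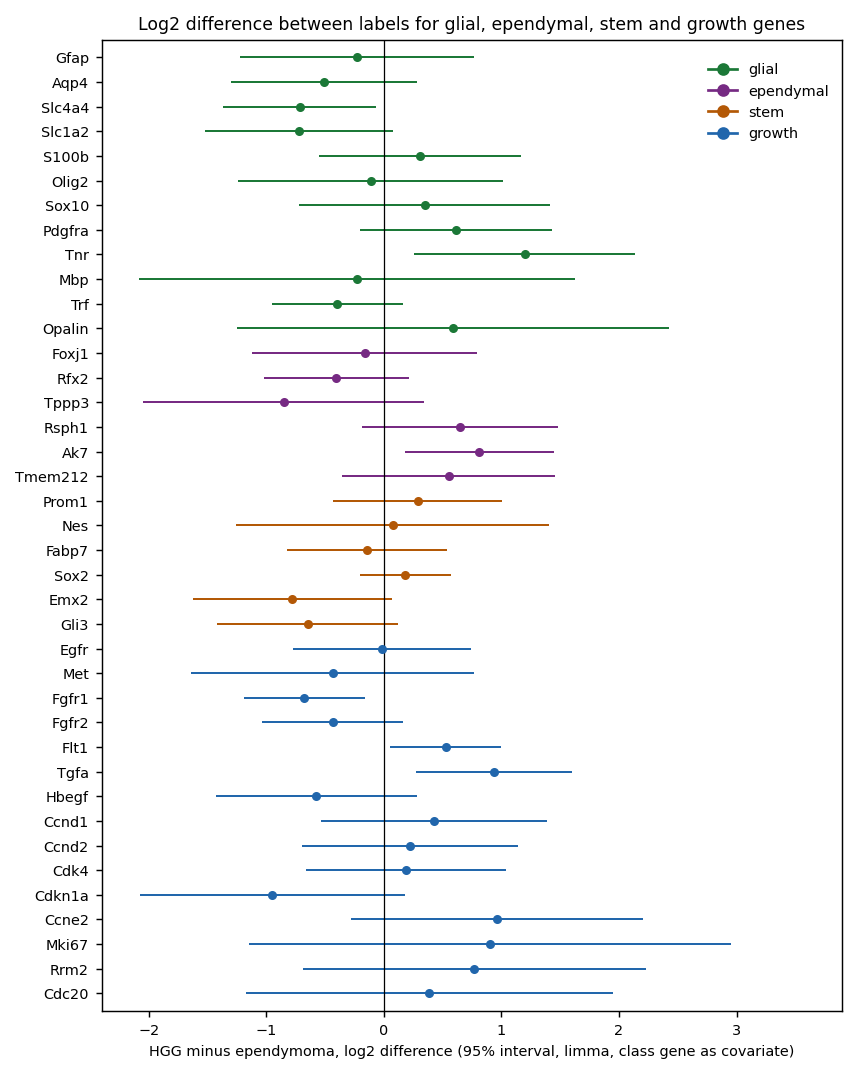
Points are HGG minus ependymoma log2 differences with 95% intervals from limma, class gene as covariate, for glial, ependymal, stem and growth genes. Most intervals include 0, and none of the genes passed after adjustment. Among those that exclude 0 before adjustment are Tnr (0.26 to 2.14), Ak7 (0.18 to 1.44), Flt1 (0.05 to 1.0), Tgfa (0.27 to 1.60), Slc4a4 (-1.37 to -0.07) and Fgfr1 (-1.19 to -0.16).

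Among cyclins, cyclin-dependent kinases and inhibitors of the G1 phase, 11 of 21 differences were positive and the median was 0.12, with 0 at an unadjusted p under 0.05 in limma. Ccnd1, a D-type cyclin, had 12.04, 10.57, 12.48 and 11.82 in HGG 1 to 4, against 9.56 to 12.40 (median 11.44) in the ependymomas, a difference of 0.43 (SE 0.45). HGG 2 alone was below the ependymoma median. Ccnd2 differed by 0.22 (SE 0.43) and their partner kinase Cdk4 by 0.19 (SE 0.40). Cdkn1a, the inhibitor p21, had 9.60, 7.90, 9.60 and 7.85 in HGG 1 to 4, against 8.24 to 11.06 (median 9.26) in the ependymomas, a difference of -0.95 (SE 0.52). The BC74C tumours HGG 2 and HGG 4 were below every ependymoma, and the ZNF668 tumours were above the median. Ccne2, a cyclin of the entry into S phase, differed by 0.97 (SE 0.58). Cdkn2a was too dim to test, with means of 3.04 in HGG and 3.21 in ependymoma. Without HGG 2 the median was 0.45, but it took the opposite sign without HGG 1 (-0.03), HGG 3 (-0.03), HGG 4 (-0.01) or ependymoma 8 (-0.08, with 8 of 21 positive).

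Genes of DNA replication and mitosis had 29 of 30 positive differences and a median of 0.55, with 0 at an unadjusted p under 0.05 in limma. Their mean was 8.95, 6.66, 9.35 and 7.72 in HGG 1 to 4, against 5.42 to 9.13 (median 7.64) in the ependymomas. HGG 3 was above every ependymoma, HGG 1 was above 10 of them, HGG 4 was close to the median and HGG 2 below it. Mki67, the marker of dividing cells, had 9.96, 7.49, 10.76 and 8.92 in HGG 1 to 4, against 5.25 to 10.44 (median 8.68) in the ependymomas, a difference of 0.90 with a 95% interval of -1.15 to 2.95. Rrm2, a subunit of ribonucleotide reductase, differed by 0.77 (SE 0.68), the topoisomerase Top2a by 0.80, and Cdc20, an activator of the anaphase-promoting complex, by 0.39 (SE 0.73). Foxm1, a transcription factor of mitotic genes, gave the only negative value, -0.01. Its other probe sets gave 0.02 and 0.23, and a dim one 0.12. With the mean of all probe sets of a gene, 30 of 30 differences were positive. The list median was 1.22 without HGG 2, with 30 of 30 positive. It was 0.29 without HGG 1, 0.14 without HGG 3, 0.31 without ependymoma 3 and 0.06 without ependymoma 8, with 22 of 30 positive in the last, and 0.05 after blocking on title prefix, with 21 of 30.

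The promoters of Cdc20, Mki67 and Top2a are shown because proliferation was the list with the most members on one side, and because CCAAT, the motif bound by the factor NF-Y, is known from promoters of mitotic genes. Each is the 250 bases before the gene's start on its own strand, from RefSeq, build GRCm38.p6, with CCAAT or its complement ATTGG in capitals: Cdc20 at chr4:118437344-118437593, Mki67 at chr7:135716380-135716629 and Top2a at chr11:99024190-99024439, all on the minus strand.
Cdc20: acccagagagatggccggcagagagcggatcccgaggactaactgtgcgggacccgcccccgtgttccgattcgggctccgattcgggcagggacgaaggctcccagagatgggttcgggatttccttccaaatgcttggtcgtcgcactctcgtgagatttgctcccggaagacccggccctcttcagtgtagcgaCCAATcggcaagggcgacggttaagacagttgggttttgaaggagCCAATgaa
Mki67: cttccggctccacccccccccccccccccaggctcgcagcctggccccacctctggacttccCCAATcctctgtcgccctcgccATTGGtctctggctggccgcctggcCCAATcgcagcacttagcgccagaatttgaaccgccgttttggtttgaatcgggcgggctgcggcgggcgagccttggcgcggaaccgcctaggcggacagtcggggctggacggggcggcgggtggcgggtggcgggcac
Top2a: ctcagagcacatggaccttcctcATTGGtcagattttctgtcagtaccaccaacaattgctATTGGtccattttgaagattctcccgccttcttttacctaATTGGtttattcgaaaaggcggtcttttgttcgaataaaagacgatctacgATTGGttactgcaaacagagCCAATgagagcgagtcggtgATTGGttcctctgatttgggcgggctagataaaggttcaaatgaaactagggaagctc
The windows hold 2, 3 and 6 boxes. RefSeq windows were found for 24 of the 30 proliferation genes tested, and 22 of their 25 windows (88%) hold CCAAT on either strand, against 33.8% of all 32851 windows. At least 2 boxes stand in 56% of the windows of the list and in 9.91% of all. A match is a description of the sequence, not a measured binding site.

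Genes of the mesenchymal type of glioma had 7 of 17 positive differences and a median of -0.10, and genes of hypoxia and glycolysis 11 of 16 and 0.11, each with 0 at an unadjusted p under 0.05 in limma. The mesenchymal median turned to 0.26 without HGG 2, with 12 of 17 positive, and to 0.05 without ependymoma 1. The hypoxia median was 0.27 without HGG 2 and 0.0049 without HGG 1. The glucose transporters Slc2a1 and Slc2a3 differed by -0.45 (SE 0.24) and -0.43 (SE 0.22). Differences of mesenchymal genes ran from -0.49 to 0.64, the highest being that of the transcription factor Runx1 (SE 0.46). Fosl2 was at -0.32 and Stat3 at -0.16. Other Runx1 probe sets gave 0.48, 0.31, -0.02 and -0.0064, and a dim one 0.14.

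**Figure D4:**
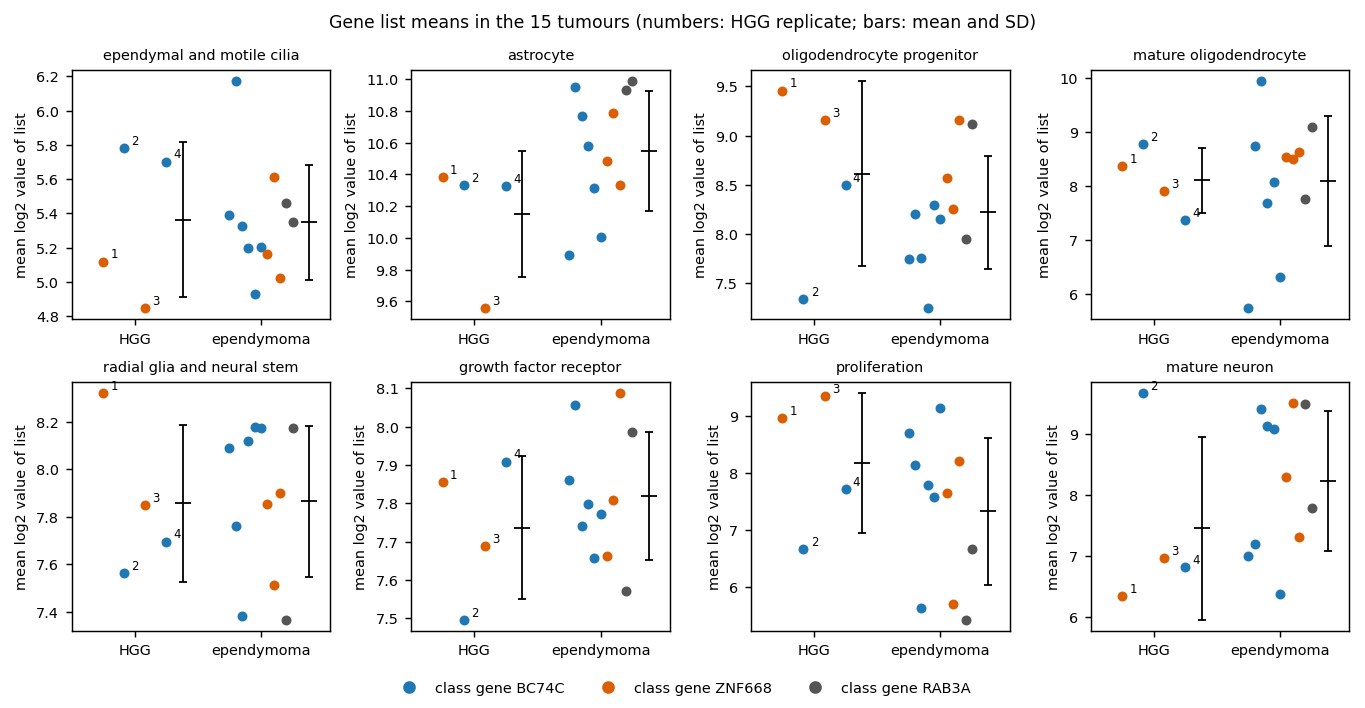
Mean log2 value of each of 8 gene lists in the 4 HGG (left, numbered by replicate) and 11 ependymoma tumours, coloured by class gene, with the mean and SD of each label as a bar. The labels overlap in every panel. HGG 2 has the highest neuron mean (9.67) and the lowest oligodendrocyte progenitor (7.34) and proliferation (6.66) means of the HGG tumours.

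Markers of other cells in the tissue were read in the same way. The mature neuron list had 1 of 20 positive differences and a median of -0.69, with 0 at an unadjusted p under 0.05 in limma. Rbfox3, the neuronal nuclear protein NeuN, had 8.21, 11.71, 8.34 and 7.85 in HGG 1 to 4, against 7.75 to 11.42 (median 9.93) in the ependymomas. HGG 2 was above every ependymoma and the other 3 were below the median, and the difference was -0.60 (SE 0.87), or -1.63 without HGG 2. The neuron list median was -1.52 without HGG 2, with 0 of 20 positive. It was -0.38 without HGG 1, -0.45 without HGG 4, -0.32 without ependymoma 8 and -0.0058 after blocking on title prefix. In a limma fit with the neuron list mean as covariate the proliferation median was -0.01, with 15 of 30 positive. That fit called 0 genes, and 500 had an unadjusted p below 0.05.

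Microglia and macrophage genes had 8 of 16 positive differences and a median of -0.01, and the list mean was 8.09, 8.35, 8.06 and 8.41 in HGG 1 to 4, against 7.67 to 9.11 (median 8.07) in the ependymomas. HGG 2 and HGG 4 were each above 9 of the 11 ependymomas, and HGG 1 and HGG 3 were near the ependymoma median. Without HGG 2 the median was -0.08, and it ranged from -0.13 without HGG 4 to 0.20 without ependymoma 9. Differences of the microglia list ran from -0.43 for Ccr2 to 0.58 (SE 0.46) for P2ry12, a receptor of resting microglia. Genes of antigen presentation and the interferon response had 9 of 16 positive and a median of 0.06, which was 0.11 without HGG 2 and ranged from -0.24 without ependymoma 8 to 0.34 without ependymoma 9. Cd74, the invariant chain of class II molecules, had 5.96, 6.24, 6.97 and 5.10 in HGG 1 to 4, against 5.84 to 10.87 (median 6.91) in the ependymomas, a difference of -1.16 (SE 0.75). HGG 3 was just above the ependymoma median and the other 3 were below it, HGG 4 below every ependymoma. Cd74 had the lowest difference of its list, whose highest was 0.55, and Psmb8 and Psmb9 were each at 0.36. T and NK cell genes had 3 of 7 positive and a median of -0.08 (-0.09 without HGG 2), and 7 further members, Foxp3 and Gzma among them, were too dim to test.

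Endothelial genes had 11 of 16 positive differences and a median of 0.09, pericyte and fibroblast genes 5 of 10 and -0.01, and choroid plexus genes 4 of 9 and -0.06. Without HGG 2 these medians were 0.09, 0.26 and -0.09. The first ranged from -0.05 without HGG 1 to 0.36 without HGG 4, the second from -0.19 without HGG 3 to 0.34 without HGG 4, and the third from -0.49 without HGG 3 to 0.45 without HGG 4. Ttr, the transthyretin of choroid plexus, had 4.71, 8.46, 11.88 and 4.51 in HGG 1 to 4, against 3.20 to 13.13 (median 4.92) in the ependymomas. HGG 2 and HGG 3 were thus well above the ependymoma median, and the other 2 below it. Neuronal progenitor genes had 5 of 10 positive and a median of -0.02 (-0.68 without HGG 2, 0.03 without HGG 1), and the globin gene Hba-a1 differed by -0.33 (SE 0.41). The Y-linked genes gave -1.27 for Kdm5d (SE 0.55), -1.12 for Uty (SE 0.50) and -1.16 for Eif2s3y (SE 0.59), and Xist, which silences an X chromosome, -0.56 (SE 0.49). Xist had 9.84, 9.36 and 9.76 in HGG 1, HGG 3 and HGG 4, against 9.63 to 12.21 (median 10.73) in the ependymomas. HGG 2 alone was above the ependymoma median, and another Xist probe set gave a difference of 0.51. Adding the mean of the Y-linked genes to the limma fit gave 0 called genes and 2245 (17.0%) at an unadjusted p below 0.05. The smallest adjusted p in that limma fit was 0.0538, and the neuron and proliferation medians were -1.84 and 1.92.

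Whether the label difference is the same in both class genes was asked of the 13 tumours with BC74C or ZNF668. In limma the difference of HGG minus ependymoma, BC74C minus ZNF668, passed in 0 of 13218 genes (0%), with a smallest adjusted p of 0.591. At an unadjusted p under 0.05 there were 1079 genes (8.16%), 355 with a positive (2.69%) and 724 with a negative value (5.48%). The median standard error was 0.49. Proliferation genes had a median HGG minus ependymoma difference of -0.62 in BC74C tumours, with 0 of 30 positive, and of 2.11 in ZNF668 tumours, with 30 of 30 positive, against medians of -0.01 and 0.0038 over all genes. In BC74C tumours HGG 2 and HGG 4 were 1.16 and 0.10 below the mean of their ependymomas. In ZNF668 tumours HGG 1 (8.95) and HGG 3 (9.35) were 1.77 and 2.17 above theirs. That ZNF668 mean rests on 3 ependymomas, at 7.64, 5.70 and 8.20 in ependymoma 7 to 9, and is pulled down by ependymoma 8. Without ependymoma 8, the proliferation median of the fit over all class genes fell from 0.55 to 0.06. Mki67 differed by -0.52 in BC74C tumours and by 2.67 in ZNF668 tumours.

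Pericyte and fibroblast genes had medians of -1.21 in BC74C and 1.05 in ZNF668 tumours, with Col3a1, a fibrillar collagen, at -2.74 and 2.64. Endothelial genes had -0.24 and 0.67, oligodendrocyte progenitor genes -0.03 and 0.74, and G1 phase genes -0.23 and 0.55, BC74C first. In the other direction, cilia genes had 0.36 in BC74C and -0.16 in ZNF668 tumours, and mature neuron genes 0.23 and -1.95. The list medians of growth factor receptors lay close together, at -0.15 and -0.11. For the difference between class genes, 2 of the 16 receptors had an unadjusted p under 0.05 in limma. That count is close to the 8.16% share of all genes and says little about single receptors. The same count was 11 of 30 for proliferation, 8 of 16 for endothelial and 6 of 10 for pericyte and fibroblast genes, and 0 of 20 for astrocyte genes. These lists share the same 4 HGG tumours and are not separate evidence, and low Y-linked values move with the BC74C tumours labelled HGG. The part of either in these values was not tested.

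The genes with the smallest p for this difference, none of which passed, included Troap, a protein of the mitotic spindle. Troap had 3.97 and 3.69 in the BC74C tumours HGG 2 and HGG 4 and 5.14 and 5.62 in the ZNF668 tumours HGG 1 and HGG 3, against 3.39 to 4.82 (median 4.26) in the ependymomas. The ZNF668 tumours were above every ependymoma and the BC74C tumours below the median, and the difference of differences was -2.17 (SE 0.38, limma adjusted p = 0.591). Tfpi, an inhibitor of coagulation, gave -3.41 (SE 0.64), the DNA repair glycosylase Tdg -2.62 (SE 0.53), the dUTPase Dut -1.81 (SE 0.35) and the splicing factor Srsf2 -1.01 (SE 0.21). Positive values came from Lhx8, a homeobox transcription factor, at 4.22 (SE 0.95), the actin-binding Synpo2 at 3.60 (SE 0.73), Cnih2, a partner of AMPA receptors, at 1.94 (SE 0.44), and Ifit1bl1 and Dop1b. Cnih2 had 7.25 and 7.52 in HGG 2 and HGG 4 and 5.56 and 5.38 in HGG 1 and HGG 3, against 5.60 to 6.98 (median 6.41) in the ependymomas. Both BC74C tumours labelled HGG were above and both ZNF668 ones below every ependymoma.

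**Figure D5:**
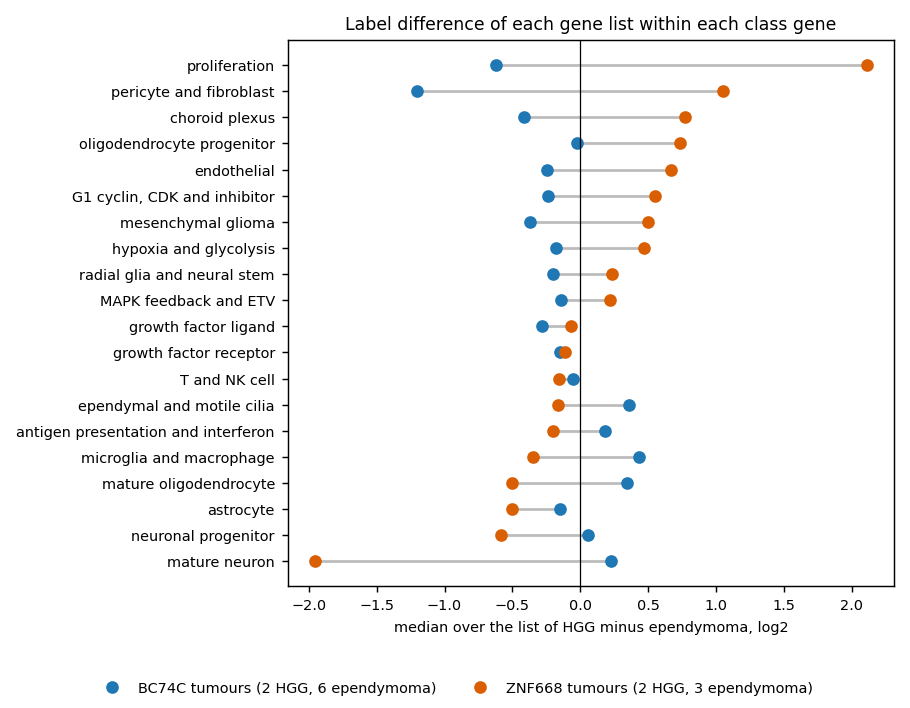
For each gene list, the median over its genes of the HGG minus ependymoma log2 difference within BC74C tumours (blue, 2 HGG and 6 ependymoma) and within ZNF668 tumours (orange, 2 HGG and 3 ependymoma). Proliferation is at -0.62 in BC74C and 2.11 in ZNF668 tumours, pericyte and fibroblast genes at -1.21 and 1.05, and mature neuron genes at 0.23 and -1.95. For growth factor receptors the list medians nearly coincide, at -0.15 and -0.11, which does not describe each receptor.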

How the data were processed

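Total RNA of 24 tumours was extracted with Trizol and hybridised as biotin-labelled cRNA, per the labels' protocols. The table the authors deposited holds log2 values of 45141 probe sets. The log2 scale was inferred from the range, 2.40 to 13.85, and the arrays' upper quartiles lie between 7.58 and 7.69. Partek 6.6 was used, per the submitters' processing notes. Background correction, normalization and summarisation are not given in the sources used here, and a normalization that equalises arrays hides changes shared by most genes. No background values were used, so signal over background was not assessed.

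The 104 control probe sets, 551 with several symbols and 15588 with none were left out. Names of 28898 single-symbol probe sets come from the platform annotation, updated for 28689 by Entrez identifier to RefSeq (GRCm38.p6). Each of 17097 genes was represented by its probe set with the highest mean over the 24 arrays, and genes whose mean was under 3.76, the 30th percentile over probe sets, were dropped, leaving 13218.

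HGG minus ependymoma was fitted over 15 tumours with the class gene as a covariate by limma 3.58.1 in R 4.3.3 (lmFit, eBayes with trend, data.table version 1.17.8), two-sided, with Benjamini-Hochberg adjustment over all genes tested and a threshold of 0.05. The difference between class genes is the interaction term over 13 tumours. The script was tested on simulated data. Members, gene lists and tests were chosen with earlier results of these data known. As no gene passed, the named genes are, per comparison and direction, the 5 of smallest p (clone and prediction names passed over), the 3 top and 3 bottom members of each list by moderated t, and a set of 20 glial, ependymal and growth genes. Not all are printed. Lists are described by counts and medians. Alternatives changed the covariate, tumours, title block, filter, probe set rule, scaling and variance model. Python 3.11.15 with pandas 2.3.3 and matplotlib 3.10.9 drew the figures.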

Additional observations from a re-analysis of the deposited data

Results flagged for a closer look

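In 189 items tested (167 genes and 22 list means), 15 had an HGG tumour far from the other 3, its gap divided by the range of the 4 being above Dixon's 95% critical value. Chance flags about 1 in 20 such groups. HGG 2 was the tumour far from the rest for Car6 (gap ratio 0.917, low), Olig2 (0.901, low), Ptprz1, a phosphatase of glial progenitors (0.922, low), Rbfox3 (0.872, high), Eomes, a transcription factor of cortical progenitors (0.918, high), and Ly6c1, a marker of brain endothelium (0.836, high). HGG 1 was high for Gfap (0.896), the myelin enzyme Cnp (0.854) and the cell cycle inhibitor Rb1 (0.878). HGG 3 was high for Zc3h8 (0.866) and low for Bmpr1b (0.989) and for the astrocyte list mean (0.930). Zc3h8 had 6.72, 6.73, 6.82 and 6.72 in HGG 1 to 4, so its gap was small on the log2 scale and the other 3 values nearly equal. HGG 4 was high for Slc4a4 (0.841) and low for Ankrd37, a hypoxia target (0.837), and Hba-a1 (0.853).

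For 7 of the 22 list means, the HGG tumours fell on opposite sides by class gene. In these, HGG 2 and HGG 4 lay on one side of the mean of the BC74C ependymomas. HGG 1 and HGG 3 lay on the opposite side of the mean of the ZNF668 ependymomas. The lists share the same 4 HGG tumours and are not separate evidence. The share of single genes with this pattern was not counted. The difference was not tested for these means. BC74C minus ZNF668, the label difference was -2.61 for proliferation, -2.41 for pericyte and fibroblast genes, -0.65 for radial glia and neural stem genes and -0.65 for hypoxia and glycolysis genes. It was 0.65 for ependymal and motile cilia genes, 0.70 for microglia and macrophage genes and 0.30 for T and NK cell genes. The low Y-linked means of HGG 2 and HGG 4, 4.34 and 5.31, cannot be told apart from their class gene.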

How the results depend on the processing

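For HGG minus ependymoma, limma called 0 genes in the 31 alternatives, 3 of which were chosen after the data were seen (within BC74C, within ZNF668, and without both BC74C tumours labelled HGG). The count at an unadjusted p under 0.05, 229 in all, was 135 after blocking on title prefix, 155 in elw titles alone, 436 of 17097 without the filter, 992 with array weights, 500 with the neuron covariate and 2245 with the Y-linked covariate. It was 855 without HGG 2 and 148 without HGG 3, and 357 within BC74C, 968 within ZNF668 and 1110 without both BC74C tumours labelled HGG. Of 167 named genes, 71 kept their sign in every alternative, 0 passed in any, and 357 of 5145 values had the opposite sign. Median centring moved the median of all genes to -0.04. For the difference between class genes, leaving out 1 tumour gave 0 to 2 called genes by limma. Without HGG 1 the gene was Mmp10 (-3.01, adjusted p = 0.0377, against -2.17 over all 13 tumours), without ependymoma 9 Hcrt (5.40, adjusted p = 0.00261, against 3.61), and without HGG 2 Usp42 (4.03, adjusted p = 0.0013, against 1.82) and Mapk13 (2.70, adjusted p = 0.0216, against 1.09). Each such fit leaves a class gene with few tumours, a lone one assumed to vary like the rest, and these 4 genes were named after their values were seen. The unadjusted count, 1079 in all, was 1850 without ependymoma 3, 637 without ependymoma 8, 567 without HGG 2, 549 without HGG 3 and 1899 without HGG 4. The cause was not tested. No paired analysis was possible because replicate numbers follow the order of deposit and pair no tumours.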
